A study of Mus musculus with 16 samples.

Results

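Transcripts of 10 circadian clock genes were followed in the seminal vesicle (SV) of 5-week-old mice: *Arntl*, *Clock*, *Npas2*, *Per1*, *Per2*, *Per3*, *Cry1*, *Cry2*, *Dbp* and *Tef*. They were chosen by name as the core clock and its output genes, out of 31274 genes in the deposited table, and all 10 passed the minimum level for testing. RNA-seq was made on 16 samples in 4 groups of 4. WT-veh were male C57Bl/6 mice given corn oil, WT-DES were mice of the same strain given DES (diethylstilbestrol, a synthetic oestrogen), and αERKO-veh and αERKO-DES (aERKO in the labels) were null mice for oestrogen receptor α (ERα), in which its gene *Esr1* is disrupted, given corn oil or DES. DES was injected at 2 µg per pup per day from day 1 to day 5 of life, and every group was collected at week 5. The *Esr1* disruption is carried in every tissue of the mouse. WT pups came from purchased pregnant females and αERKO pups from a heterozygous breeding colony, so the genotype and the origin of the litters cannot be told apart. The methods describe individual mice for the other groups and 3 pools of mice for WT-DES RNA, while 4 WT-DES samples were sequenced, and how these relate to the pools is not given. Nothing says that the 4 came from separate animals, and p-values therefore measure only the spread between these samples. The time of day at which tissue was taken is not given in the sources used here.

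The circadian clock is a transcriptional loop that runs in nearly every cell. ARNTL (BMAL1) pairs with CLOCK or NPAS2 and activates genes with an E-box, among them the *Per* and *Cry* genes, whose proteins return to the nucleus and repress that pair. The same pair drives *Dbp* and the nuclear receptors REV-ERBα and REV-ERBβ, and DBP, with its relative TEF, acts on D-box sequences. REV-ERB proteins repress *Arntl*, so that *Arntl* transcripts normally peak at the opposite time of day from *Dbp* and *Per* transcripts. Peripheral clocks of this kind are set by light through the brain, by feeding and by glucocorticoids.

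The letters these factors read can be found in the promoters of several of the 10 genes. RefSeq promoter windows on GRCm38.p6, which reach from upstream of each transcription start to just past it, were found for 9 of the 10 genes, all but *Per2*. Both strands were searched for the E-box CACGTG, the variant E-box CACGTT, the D-box TTATGTAA, the REV-ERB and ROR core TAGGTCA and the cAMP element TGACGTCA, and no match overlapped another. Among all 32851 windows, 7.15% held the E-box, 4.68% the variant E-box, 0.938% the D-box, 2.61% the REV-ERB and ROR core and 1.79% the cAMP element. The 4 windows shown are those of genes whose transcripts changed with DES and that held a motif. They lie at chr7:113207261-113207560 (*Arntl*, second start, plus strand), chr4:151044616-151044915 (*Per3*, minus strand), chr10:85185005-85185304 (*Cry1*, minus strand) and chr15:81802423-81802722 (*Tef*, first start, plus strand), are written 5′ to 3′ along the gene, and have the matched motifs in capitals:
Arntl: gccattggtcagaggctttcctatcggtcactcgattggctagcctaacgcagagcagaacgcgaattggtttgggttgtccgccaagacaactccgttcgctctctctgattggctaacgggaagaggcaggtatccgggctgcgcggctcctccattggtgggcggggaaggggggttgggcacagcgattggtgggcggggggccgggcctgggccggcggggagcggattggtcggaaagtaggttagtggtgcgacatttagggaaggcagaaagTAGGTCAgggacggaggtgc
Per3: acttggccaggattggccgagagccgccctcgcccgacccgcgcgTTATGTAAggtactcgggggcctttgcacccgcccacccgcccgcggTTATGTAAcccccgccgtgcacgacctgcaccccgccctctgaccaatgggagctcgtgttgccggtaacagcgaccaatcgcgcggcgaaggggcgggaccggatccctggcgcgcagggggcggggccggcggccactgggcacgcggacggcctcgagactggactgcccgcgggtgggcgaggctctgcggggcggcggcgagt
Cry1: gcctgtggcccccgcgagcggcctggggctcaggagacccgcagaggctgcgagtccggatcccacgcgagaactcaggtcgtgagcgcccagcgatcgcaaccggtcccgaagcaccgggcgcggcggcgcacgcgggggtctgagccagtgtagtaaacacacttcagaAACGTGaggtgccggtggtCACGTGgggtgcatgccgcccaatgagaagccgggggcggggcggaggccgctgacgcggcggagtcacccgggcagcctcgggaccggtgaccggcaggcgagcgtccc
Tef: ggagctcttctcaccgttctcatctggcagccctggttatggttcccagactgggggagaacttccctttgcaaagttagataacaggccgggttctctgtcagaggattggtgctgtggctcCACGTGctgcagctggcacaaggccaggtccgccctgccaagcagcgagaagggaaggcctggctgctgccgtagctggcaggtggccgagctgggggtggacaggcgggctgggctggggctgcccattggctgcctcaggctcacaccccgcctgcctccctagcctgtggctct

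*Arntl* had a single REV-ERB and ROR core, whose first base is base 31 of the transcribed part. *Per3* had D-boxes at −205 and −158, counted from the start. *Cry1* had an E-box at −60 and, on the opposite strand, a variant E-box at −79, which appears in capitals as its reverse complement AACGTG. *Tef* had an E-box at −127 in the window shown and one at −138 in the window of its second start. *Per1* had an E-box at −166 in 1 of its windows, and *Cry2* had a variant E-box at −166 on the opposite strand. The windows of *Clock*, *Npas2* and *Dbp* held none of the 5 motifs, which says only that these letters are not in those windows.

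**Figure D1:**
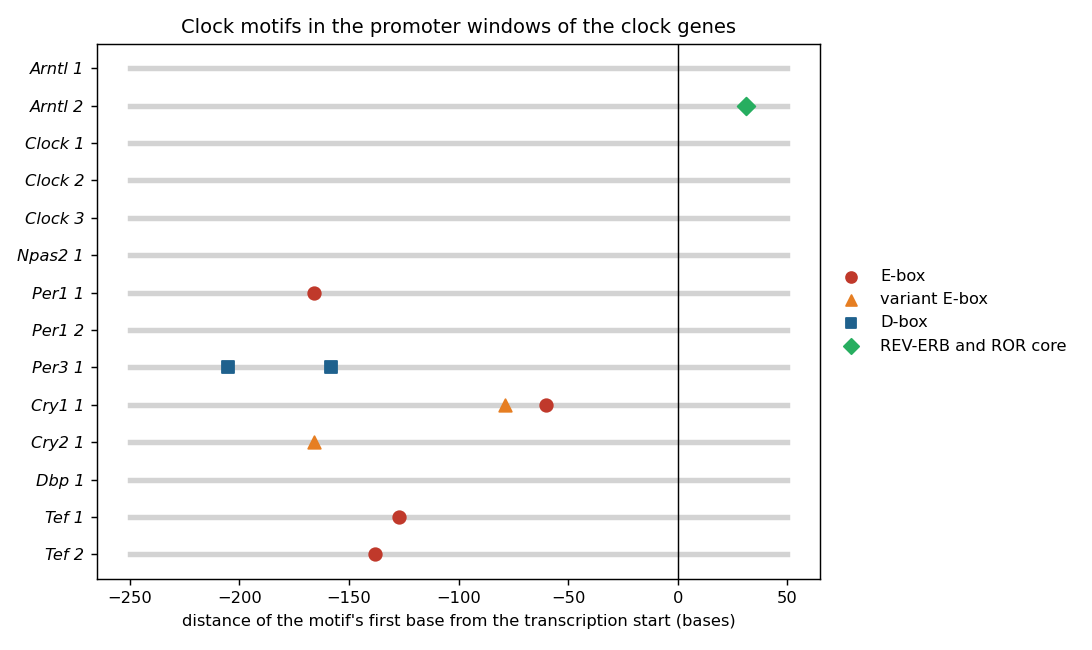
Position of each motif match in the promoter windows of 9 clock genes, as the distance of its first base from the transcription start in bases; grey lines are the windows, numbered by start site. *Per3* holds both D-boxes (−205 and −158), *Cry1* an E-box at −60 and a variant E-box at −79, and *Arntl* its REV-ERB and ROR core at 31.

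The deposited FPKM values (fragments for each kilobase of exon, relative to all those mapped) are scaled for length, so that levels of different genes can be set side by side. Summed FPKM still ran from 375207 to 652708 over the samples, and it went with the groups. No WT-DES sample had a total above 437619, while the lowest total outside that group was 479045, an αERKO-veh sample. Every WT-veh total was at least 590446. The comparison of WT-DES with WT-veh therefore coincides with a difference in totals, and its results also depend on the scaling. Levels also trended with transcript length, and this trend moved with the groups. All WT-veh samples had a negative rho, between −0.519 and −0.207, and all WT-DES samples a positive one, between 0.164 and 0.193. The αERKO samples lay between −0.284 and 0.169 when given DES, and otherwise between −0.09 and 0.444. Values corrected for the trend of each sample are given beside the results. The files give no counts, so the depth of the libraries is unknown and precision rests on the 4 samples of a group. Differences between groups are on the log2(FPKM + 1) scale, which understates the change of low genes such as *Per2*, and were tested in 1 limma model of 15988 genes. A gene was called changed when its adjusted p was at most 0.05, its mean FPKM differed at least 1.5-fold and 1 of the groups had a mean above 1 FPKM. *Esr1* fits the labelled genotypes, with 0.91 to 1.75 FPKM in the αERKO samples and 2.81 to 19.6 FPKM in WT. The 7 listed SV secretory genes summed to between 46166 and 54055 FPKM in WT-veh, and to between 2372 and 7708 FPKM in WT-DES. WT-DES sample 1 stood apart in its group, with a summed level of 4 smooth muscle genes of 2523 FPKM against 691 to 1037 FPKM in the other 3.

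In WT mice, neonatal DES went with a lower level of *Arntl* and *Cry1* and a higher level of *Per2*, *Per3*, *Dbp* and *Tef* at week 5. The ratios of mean FPKM, WT-DES over WT-veh, ran from 0.536 for *Arntl* to 4.62 for *Per2*. *Clock*, *Npas2* and *Cry2* moved by less than the 1.5-fold minimum, and *Per1* did not pass the test. Thus 6 of the 10 clock genes were called, against 52.7% of all genes tested. Of these, 4 were higher (28.9% of all genes tested) and 2 were lower (23.9%). At any fold, 9 of 10 had an adjusted p within 0.05, against 73.8% of all genes. A share of this size is near that of all genes in this comparison, and the clock genes are therefore described one by one.

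*Arntl*, on chromosome 7 from 113207465 to 113314126 (plus strand, GENCODE M21 on GRCm38, as for all gene positions here), encodes the activator of the loop. The vehicle samples had 14.5, 16.9, 16.8 and 13.3 FPKM in WT and 9.76, 10.8, 14.2 and 11.3 FPKM in αERKO, and the DES samples had 6.02, 9.63, 8.75 and 8.55 FPKM in WT and 12.6, 12.6, 14.4 and 12.8 FPKM in αERKO. Every WT-DES sample was below every sample of the other groups, while the 2 αERKO groups overlapped. *Arntl* fell by 0.84 in WT-DES relative to WT-veh (log2(FPKM + 1), standard error 0.13, limma adjusted p = 3.38e-05). Means were 15.4 ± 1.78 FPKM in WT-veh and 8.24 ± 1.55 FPKM in WT-DES (SD, n = 4 each).

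*Clock* and *Npas2*, the alternative partners of ARNTL, moved less and in opposite directions. *Clock* (chromosome 5, 76209868 to 76304792, minus strand) stood at 8.82, 8.88, 9.11 and 7.20 FPKM in WT-veh and at 11.9, 10.5, 10.5 and 10.8 FPKM in WT-DES. All WT-DES samples were above all WT-veh samples, with a ratio of 1.28 and a difference of 0.33 on the log2(FPKM + 1) scale (standard error 0.11, limma adjusted p = 0.0124). Corrected for transcript length, the sign turned (−0.16, limma adjusted p = 0.109). *Npas2* (chromosome 1, 39193731 to 39363236, plus strand) was low in every group, with 4.43, 5.00, 3.98 and 3.77 FPKM in WT-veh and 3.07, 2.95, 3.01 and 3.28 FPKM in WT-DES. Its WT-DES samples were all below the WT-veh samples, with a ratio of 0.717 and a log2 difference of −0.37 (standard error 0.11, limma adjusted p = 0.00507). In the αERKO groups *Clock* ranged from 7.90 to 12.8 FPKM and *Npas2* from 2.77 to 4.35 FPKM, with overlap between vehicle and DES for both.

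The *Per* genes encode the period proteins, which carry the repression of the loop, and they differed from one another. *Per1* (chromosome 11, 69095217 to 69109960, plus strand) had 23.8, 18.2, 19.3 and 18.8 FPKM in WT-veh and 24.3, 15.3, 15.96 and 16.4 FPKM in WT-DES. The groups overlapped, and *Per1* was the only clock gene that missed the adjusted p in WT (log2 difference −0.16, standard error 0.14, limma adjusted p = 0.317). *Per2* (chromosome 1, 91415982 to 91459324, minus strand) had 2.40, 1.61, 1.52 and 1.81 FPKM in the vehicle samples of WT and 2.78, 5.77, 3.12 and 3.06 FPKM in those of αERKO, against 14.3, 6.28, 7.42 and 5.92 FPKM in the DES samples of WT and 1.55, 2.97, 1.94 and 2.73 FPKM in those of αERKO. The WT-DES samples lay above all others, with sample 1 the highest. *Per2* rose by 1.67 in WT-DES (log2(FPKM + 1), standard error 0.24, limma adjusted p = 1.97e-05), and by 1.42 without WT-DES sample 1 (limma adjusted p = 1.79e-05).

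*Per3* (chromosome 4, 151003652 to 151044665, minus strand) was separated between the WT groups by a wide margin. It had 9.35, 6.95, 7.0 and 5.74 FPKM in the vehicle samples of WT and 13.8, 18.4, 8.56 and 12.7 FPKM in those of αERKO, against 20.9, 19.9, 25.2 and 19.5 FPKM in the DES samples of WT and 7.79, 10.4, 7.28 and 11.8 FPKM in those of αERKO. The lowest WT-DES sample was above the highest sample of every other group. The ratio was 2.94 and the log2 rise 1.45 (standard error 0.20, limma adjusted p = 9.56e-06). *Per3* lies within *Camta1* on the same strand, and *Camta1* did not pass the test (log2 difference 0.11, limma adjusted p = 0.37).

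Of the cryptochromes, the partners of the period proteins, *Cry1* was lower in WT-DES and *Cry2* slightly higher. *Cry1* (chromosome 10, 85131700 to 85185064, minus strand) had 8.69, 10.5, 10.8 and 10.2 FPKM in the vehicle samples of WT and 7.17, 7.85, 10.7 and 7.73 FPKM in those of αERKO, against 8.35, 4.95, 5.48 and 5.20 FPKM in the DES samples of WT and 10.3, 10.4, 13.2 and 8.09 FPKM in those of αERKO. WT-DES sample 1 was the exception in its group, close to the lowest WT-veh sample, although the groups did not overlap. *Cry1* fell by 0.68 (log2(FPKM + 1), standard error 0.16, limma adjusted p = 0.00127), and by 0.83 without that sample. *Cry2* (chromosome 2, 92403646 to 92434043, minus strand) had 15.5, 12.1, 12.5 and 13.0 FPKM in WT-veh and 19.9, 15.2, 16.5 and 14.99 FPKM in WT-DES. The groups overlapped through WT-veh sample 1, with a ratio of 1.25 and a log2 difference of 0.30 (standard error 0.10, limma adjusted p = 0.0156). Without WT-DES sample 1 the adjusted p of *Cry2* was 0.0535 (limma). *D930015M05Rik* overlaps *Cry2* on the opposite strand, and without strand in the counting, which is not stated, their reads cannot be told apart.

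The output factors *Dbp* and *Tef* had the highest levels of the 10 genes in WT mice. *Dbp* (chromosome 7, 45705088 to 45710203, plus strand), whose transcript is among the strongest cycling ones in mouse tissues, had 46.04, 31.3, 29.5 and 33.0 FPKM in the vehicle samples of WT and 52.6, 55.3, 19.2 and 51.1 FPKM in those of αERKO, against 141, 93.8, 101 and 78.6 FPKM in the DES samples of WT and 29.6, 36.6, 18.6 and 39.7 FPKM in those of αERKO. The lowest WT-DES sample was above every sample of the other groups. *Dbp* rose by 1.53 (log2(FPKM + 1), standard error 0.31, limma adjusted p = 0.000405), from 34.9 ± 7.54 to 104 ± 26.8 FPKM (SD, n = 4 each). *Tef* (chromosome 15, 81802421 to 81826863, plus strand) had 46.7, 36.3, 35.9 and 34.5 FPKM in the vehicle samples of WT and 58.0, 66.8, 36.6 and 58.8 FPKM in those of αERKO, against 89.7, 66.8, 76.2 and 65.7 FPKM in the DES samples of WT and 38.3, 45.6, 37.9 and 47.9 FPKM in those of αERKO. The WT groups did not overlap, but αERKO-veh sample 2 reached the WT-DES range. *Tef* rose by 0.94 (standard error 0.16, limma adjusted p = 9.93e-05), a ratio of 1.95. In WT-veh the ranges of *Dbp* and *Tef* overlapped, as they did in WT-DES. *Sphk2*, on the opposite strand of *Dbp*, moved the other way, falling by 0.92 on the log2 scale (limma adjusted p = 1.93e-08).

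**Figure D2:**
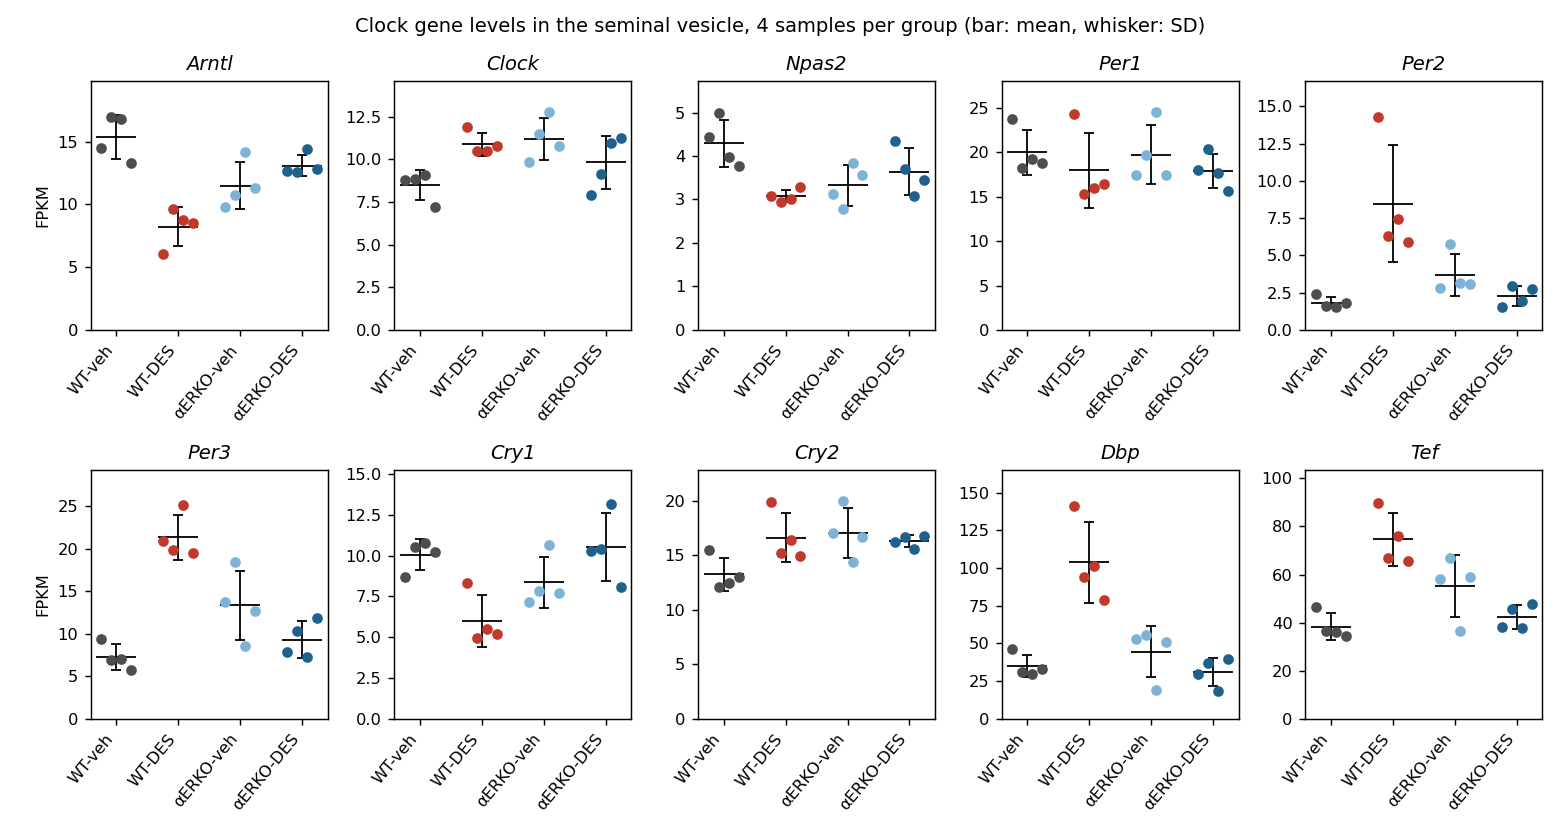
FPKM of the 10 clock genes (vertical axes, linear, from 0) in the 16 samples; each point is a sample, bars are group means and whiskers the SD of 4 samples. The WT-DES samples of *Per2*, *Per3* and *Dbp* lie above all other samples and those of *Arntl* (6.02 to 9.63) below all others, while *Per1* overlaps between all groups.

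Counted over the genes, the samples of WT-DES and WT-veh did not overlap for 8 of the 10, 5 higher and 3 lower, against 66.7% of all genes tested. The relation of *Dbp* to *Arntl* shows the size of the joint shift. *Dbp* had 1.76 to 3.18 times the FPKM of *Arntl* in the WT-veh samples, 23.5 times in WT-DES sample 1 and 9.20 to 11.6 times in the other WT-DES samples. In αERKO-DES the ratio was 1.29 to 3.10, and in αERKO-veh it was 1.35 in sample 3 and 4.52 to 5.39 in the other samples.

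Which changes passed the test or the fold minimum depended on how the samples were scaled, those of *Arntl* and *Cry1* among them. The sign turned for *Per1* with equal totals and for *Clock* with the length correction (−0.16). Rescaling to equal totals without the 20 most abundant genes moved the median difference of all genes from −0.01 to 0.38 on the log2 scale and the split of called genes from 4613 higher and 3815 lower to 6945 higher and 1828 lower. Under that scaling *Per2* (2.01), *Per3* (1.85), *Dbp* (1.96) and *Tef* (1.37) were called higher as before. *Arntl* was still lower (−0.44, limma adjusted p = 0.0164) but under the fold minimum, and *Cry1* no longer passed (−0.30, limma adjusted p = 0.0693). *Clock* (0.72) and *Cry2* (0.71) were called higher, *Npas2* no longer passed (−0.03, limma adjusted p = 0.796), and *Per1* turned to 0.25 (limma adjusted p = 0.0915). Quantile normalization kept the 6 calls and called *Npas2* lower as well (−0.85, limma adjusted p = 6.11e-06), while *Clock* no longer passed (0.16, limma adjusted p = 0.183). Corrected for the length trend, which had opposite signs in these groups, *Arntl* (−0.92), *Cry1* (−0.64), *Per2* (1.39), *Per3* (1.15), *Dbp* (1.77) and *Tef* (0.81) were called as before, *Npas2* (−0.48) was called lower, and *Clock* and *Cry2* (limma adjusted p = 0.109 and 0.0543) did not pass. Measured against the median of all genes, *Arntl* and *Cry1* were lower and *Per2*, *Per3*, *Dbp* and *Tef* higher under either scaling.

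Levels of cell type marker genes moved with DES in WT, where 28.9% of all genes tested were called higher and 23.9% lower. All 8 leukocyte genes listed were called higher, with a summed level of 80.4 to 142 FPKM in WT-veh and 406 to 596 FPKM in WT-DES, and all 5 fibroblast genes were higher, with sums of 603 to 720 FPKM and 1590.2 to 1730 FPKM. The SV secretory list was lower for 7 of 7 genes and the epithelial list for 4 of 6, with epithelial sums of 1463 to 1621 FPKM and 800 to 1148 FPKM. Of the smooth muscle genes 3 of 4 were lower, with sums of 2336 to 2835 FPKM in WT-veh and 691 to 2523 FPKM in WT-DES. Adipocyte (3 of 4), endothelial (3 of 3) and basal epithelial genes (2 of 3) were higher, and 2 of 5 skeletal muscle genes were lower. The 1 anterior prostate gene listed, *Pbsn*, had 2009.9 to 2179 FPKM in WT-veh and 10.6 to 166 FPKM in WT-DES. None of these lists had a gene listed at 0 in all samples of a group. Their part in the clock gene differences was not tested, and in whole tissue fewer cells of a type and less RNA per cell cannot be told apart. Of the genes that respond to glucocorticoids, *Fkbp5* and *Sgk1* fell (by 1.53 and 2.64 on the log2 scale) and the other 3 listed were not called. Of the immediate early genes, which respond to handling and stress, *Fos*, *Junb*, *Egr1* and *Dusp1* rose (1.54, 0.79, 1.25 and 0.71) while *Ier2* (−0.51) and *Nr4a1* (−0.49) were lower, passing the adjusted p but not the fold minimum. Their part was not tested either, and a difference in the hour of collection between groups cannot be told apart from the treatment.

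The αERKO mice show whether the clock genes differed with DES when ERα was disrupted. None of the 10 clock genes was called on comparing αERKO-DES with αERKO-veh, 0 of 10, and 0 passed the adjusted p at any fold (limma adjusted p between 0.166 and 0.806). The background was low as well, at 1.49% of all genes tested. Of all 15988 genes, 4042 had an unadjusted limma p within 0.05. Of the 10 clock genes only *Per3* did (0.0342), with a log2 difference of −0.46 (standard error 0.20). *Per2* (−0.49), *Dbp* (−0.45) and *Tef* (−0.34) had values of the same sign, and *Arntl* (0.18) and *Cry1* (0.30) of the opposite sign. With sample weights, under which less variable samples count for more, the adjusted p (limma) was within 0.05 for *Per3* (−0.38, 0.0279), *Cry1* (0.39, 0.00414), *Dbp* (−0.62, 0.0230) and *Tef* (−0.41, 0.00556). Without αERKO-veh sample 3 it was so for *Tef* (−0.52, 0.0403). In each case the ratio of mean FPKM, which is taken without weights, was under the fold minimum. The weights moved all genes as well. They gave 1119 calls in place of 239, and 8113 of 15988 genes with an unadjusted limma p within 0.05 in place of 4042. The samples of the 2 αERKO groups overlapped for all 10 genes, and 13.0% of all genes did not overlap. Of the marker lists, 3 of 5 skeletal muscle, 2 of 4 adipocyte and 1 of 5 fibroblast genes were called lower in αERKO-DES, and their part was not tested.

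The change with DES differed between the genotypes for the 6 genes called within WT. The interaction, which takes the DES change of αERKO from that of WT on the log2 scale, was called for 6 of the 10 clock genes at 1.5-fold or more, against 56.4% of all genes tested. It was positive for 4, *Per2* (2.16, standard error 0.34, limma adjusted p = 5.94e-05), *Per3* (1.90), *Dbp* (1.98) and *Tef* (1.28), and 29.6% of all genes were called in that direction. It was negative for 2, *Arntl* (−1.02, standard error 0.18, limma adjusted p = 0.000164) and *Cry1* (−0.98), against 26.9% of all genes. At any fold 9 of 10 passed, all but *Per1* (−0.04, limma adjusted p = 0.881), where 71.5% of all genes did. Corrected for transcript length, *Clock* turned from 0.51 to −0.14 (limma adjusted p = 0.302) and *Cry2* (0.27, limma adjusted p = 0.105) no longer passed, while the 6 calls held and *Npas2* (−0.60) was called as well. With equal totals without the 20 most abundant genes, which moved the median of all genes to 0.51 and the split of called genes from 4729 higher and 4296 lower to 7276 and 1960, *Arntl* (−0.50) and *Cry1* (−0.48) went under the fold minimum and *Clock* (1.02) and *Cry2* (0.89) passed it.

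**Figure D3:**
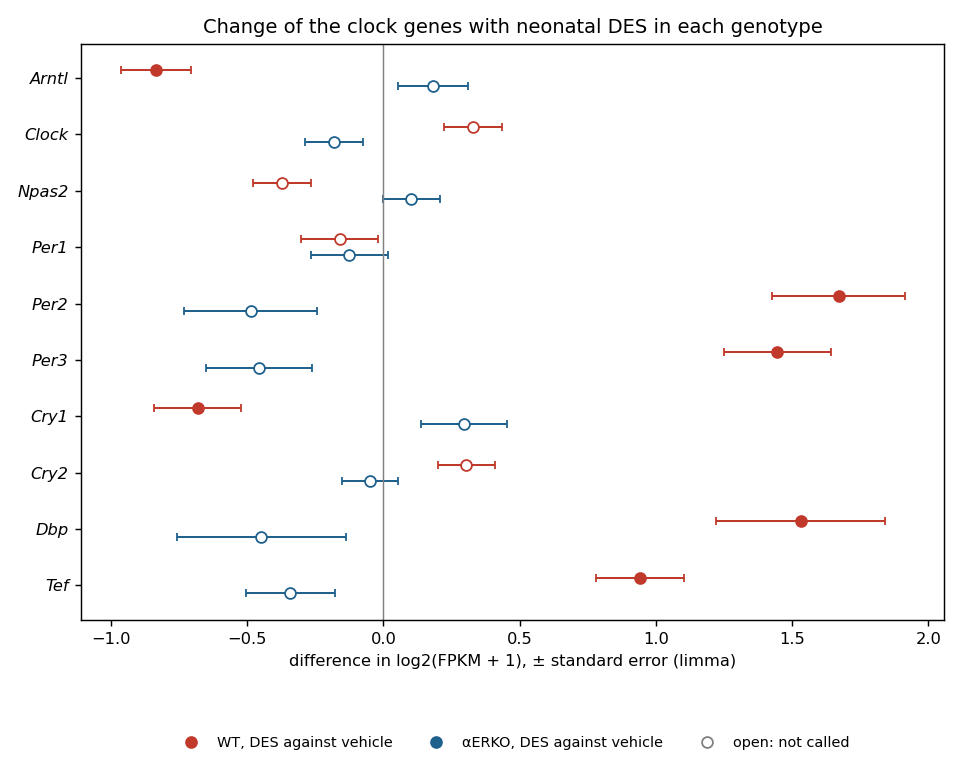
Log2 change with DES of each clock gene in WT (red) and αERKO (blue), as the limma difference in log2(FPKM + 1) with its standard error; filled points were called. In WT the changes run from −0.84 (*Arntl*) to 1.67 (*Per2*), and no αERKO point was called.

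The groups that both received DES were then compared. In αERKO-DES relative to WT-DES, 6 of the 10 genes were called, against 53.4% of all genes tested. *Arntl* and *Cry1* were higher, by 0.62 and 0.73 on the log2 scale (23.7% of all genes were called higher), and *Per2*, *Per3*, *Dbp* and *Tef* were lower, with log2 differences of −1.47, −1.13, −1.73 and −0.80 (29.6% of all genes were called lower). The samples did not overlap for 5 of the 10, 1 higher and 4 lower, against 66.5% of all genes, and *Cry1* overlapped by WT-DES sample 1. The ratio of *Arntl* (1.59) went under the 1.5-fold minimum without that sample (log2 difference 0.50, limma adjusted p = 0.000906). With equal totals without the 20 most abundant genes, which split the called genes into 2031 higher and 6580 lower in place of 3797 and 4740, *Arntl* (0.27) and *Cry1* (0.39) were not called. Corrected for transcript length, the 6 calls held. This comparison and the one within WT share the WT-DES samples. Cell type markers moved here as well, with 8 of 8 leukocyte genes lower in αERKO-DES (sums of 46.7 to 69.7 FPKM, against 406 to 596 FPKM in WT-DES), 5 of 5 fibroblast genes lower (399 to 467 FPKM, against 1590.2 to 1730 FPKM) and 4 of 4 adipocyte and 3 of 3 endothelial genes lower. The SV secretory genes were higher for 7 of 7 (30535 to 57795 FPKM, against 2372 to 7708 FPKM), the epithelial genes for 5 of 6 and the smooth muscle genes for 3 of 4, and *Pbsn* had 1547 to 2186 FPKM in αERKO-DES. Their part in the clock gene differences was not tested. In αERKO-DES relative to WT-veh 0 of 10 clock genes were called, against 3.18% of all genes. *Cry2* alone had an unadjusted limma p under 0.05, of 0.0145, where 4228 of 15988 genes had one within 0.05.

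Without DES, *Per2* and *Per3* were higher in αERKO-veh than in WT-veh, by ratios of 2.01 and 1.84. These were 2 of the 10 clock genes, against 7.12% of all genes tested. *Per3* rose by 0.77 (log2(FPKM + 1), standard error 0.20, limma adjusted p = 0.0141) and *Per2* by 0.69 (standard error 0.24, limma adjusted p = 0.0489). The *Per2* samples of αERKO-veh (2.78 to 5.77 FPKM) were above those of WT-veh (1.52 to 2.40 FPKM), while the *Per3* ranges overlapped through αERKO-veh sample 3. The call of *Per2* is at the edge of the threshold and was lost with no minimum on FPKM, with a mean above 5 FPKM required, with a replicate block, with no variance trend, with quantile normalization, with a length correction (limma adjusted p = 0.155) and without 12 of the 16 samples, one at a time. Leaving out αERKO-veh sample 2 ended both calls (*Per2* limma adjusted p = 0.169, *Per3* 0.0528). That sample also had the highest sums of its group for endothelial genes (76.8 FPKM, against 44.0 to 50.7 FPKM), fibroblast genes (793 FPKM, against 488 to 702 FPKM) and adipocyte genes (581 FPKM, against 60.1 to 249.3 FPKM), and the highest length trend of the 16 samples (rho = 0.444). The longest transcripts of *Per2* and *Per3* have 5833 and 5999 bases. Between the vehicle groups 1 of 5 skeletal muscle and 1 of 3 endothelial genes were called higher in αERKO-veh and 1 of 8 leukocyte genes lower, and the part of these lists was not tested. At any fold 6 of 10 genes passed, against 26.1% of all genes. These were also *Arntl* (−0.39), *Clock* (0.36), *Cry2* (0.34) and *Tef* (0.49). Corrected for transcript length, *Per3* was still called (0.57, limma adjusted p = 0.0467), *Arntl* passed (−0.42, limma adjusted p = 0.0446), and *Clock* (0.02), *Cry2* (0.31) and *Tef* (0.42) did not pass (limma adjusted p = 0.893, 0.0588 and 0.0888). *Tef* stayed uncalled under 23 of 27 alternatives and was called under the others. Among the others was leaving out αERKO-veh sample 3, uncorrected (0.67, limma adjusted p = 0.00904). The groups did not overlap for *Clock* and *Per2*, where 29.7% of all genes did not overlap. *Fkbp5* (0.81), *Zbtb16* (1.23) and *Klf9* (0.73), which respond to glucocorticoids, were called higher in αERKO-veh. The other listed genes of this kind had negative values, *Tsc22d3* (−0.32, limma adjusted p = 0.0166) under the fold minimum and *Sgk1* (−0.24, limma adjusted p = 0.464) not passing, and the part of these genes was not tested.

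The wider clock machinery was followed in a list of 23 further genes, all of which were tested. Their values are not corrected for transcript length. With DES in WT, 9 were called higher and 2 lower, with a median log2 difference of 0.44 against −0.01 for all genes. These 11 of 23 stand against 52.7% of all genes tested (28.9% higher and 23.9% lower), so the total is near that of all genes. The genes for REV-ERBα and REV-ERBβ, the repressors of *Arntl*, were both higher. *Nr1d1* had 27.7, 25.1, 22.2 and 26.1 FPKM in WT-veh and 75.2, 70.5, 63.4 and 55.9 FPKM in WT-DES, a log2 rise of 1.35 (standard error 0.16, limma adjusted p = 2.19e-06). *Nr1d2* had 22.5, 19.9, 18.9 and 15.1 FPKM in WT-veh and 39.6, 39.8, 40.2 and 38.8 FPKM in WT-DES, a log2 rise of 1.03. Neither overlapped between the groups. *Rorb*, whose protein activates *Arntl*, was lower (−0.79), at low means of 2.90 FPKM in WT-veh and 1.35 FPKM in WT-DES. The related *Rora* stood at 0.44, under the fold minimum.

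*Bhlhe40* (1.72) and *Bhlhe41* (1.18), E-box repressors, *Arntl2* (1.88), a relative of *Arntl*, and *Timeless* (0.70), which acts mainly at the replication fork in mammals, were called higher in WT-DES. *Csnk1e* (0.95), a kinase of the period proteins, and the ubiquitin ligase genes *Fbxl21* (0.68) and *Btrc* (0.60) were higher as well. *Fbxl21* (means of 0.39 FPKM in WT-veh and 1.24 FPKM in WT-DES) and *Arntl2* (0.735 and 5.51 FPKM) were low. Both passed the minimum of 1 FPKM through WT-DES only. *Nampt* (−0.73), the enzyme of the NAD salvage pathway, was lower. *Ciart*, a repressor that cycles with the *Per* genes, had 4.84, 4.52, 5.02 and 3.65 FPKM in WT-veh and 10.7, 3.37, 4.36 and 2.76 FPKM in WT-DES, so that sample 1 was above, samples 2 and 4 below and sample 3 within the WT-veh range (log2 difference 0.05, limma adjusted p = 0.875).

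With DES in αERKO 0 of the 23 were called (1.49% of all genes tested), as on comparing αERKO-DES with WT-veh (3.18%). In the latter comparison 2 passed the adjusted p under the fold minimum, where 1288 of 15988 genes passed at any fold. In the former, *Btrc* (0.00411) and *Csnk1e* (0.0293) had an unadjusted limma p within 0.05, where 4042 of 15988 genes did. In αERKO-veh relative to WT-veh *Nr1d2* was the 1 gene called, against 7.12% of all genes. The interaction was called positive for 11 and negative for 2, or 13 of 23, against 56.4% of all genes tested (29.6% positive and 26.9% negative). Its values include *Nr1d1* at 1.68, *Nr1d2* at 1.27, *Bhlhe40* at 1.99 and *Arntl2* at 2.15, with *Rora* (0.66) and *Gsk3b* (0.61) passing in addition to the genes called within WT. In αERKO-DES relative to WT-DES 4 of the 23 were higher and 8 lower, or 12 of 23, against 53.4% of all genes tested (23.7% higher and 29.6% lower). Both totals are near those of all genes.

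**Figure D4:**
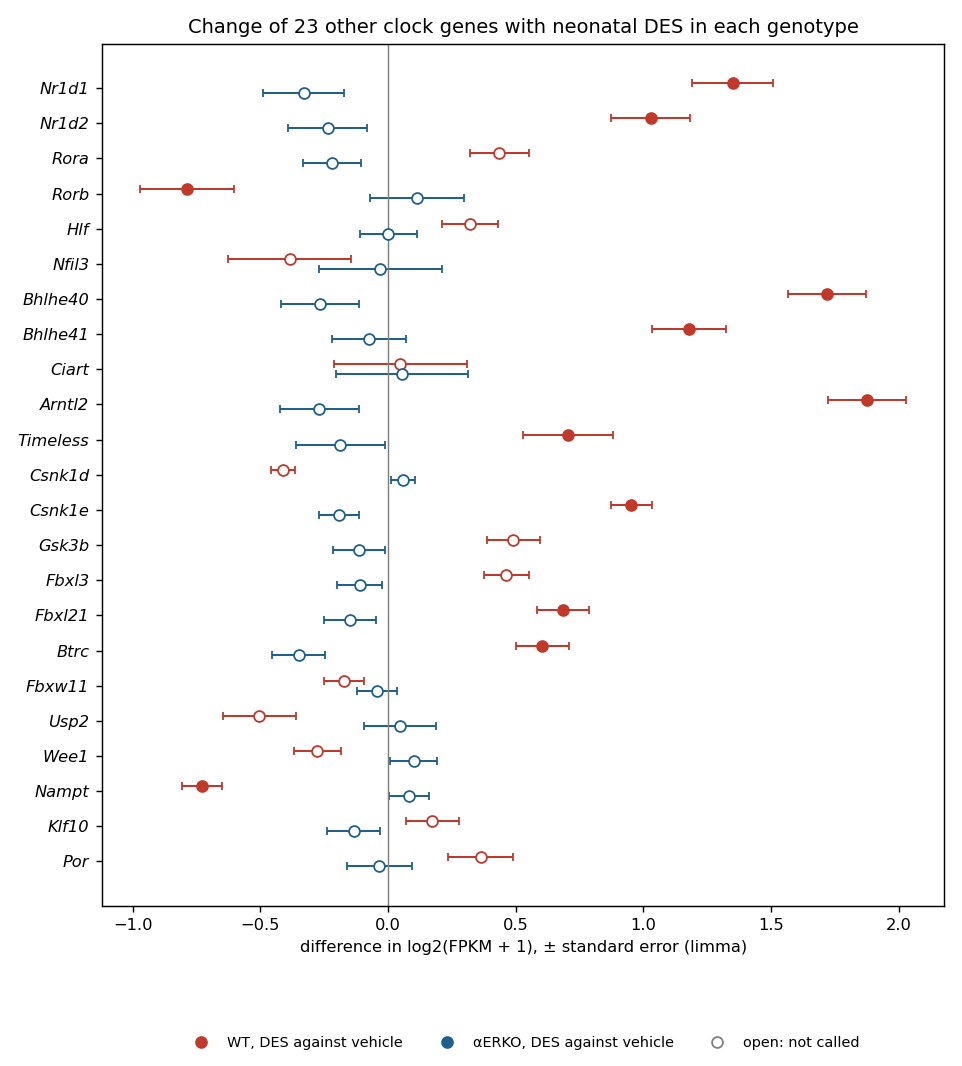
Log2 change with DES of 23 further clock genes in WT (red) and αERKO (blue), as the limma difference in log2(FPKM + 1) with its standard error; filled points were called. In WT *Arntl2* (1.88), *Bhlhe40* (1.72) and *Nr1d1* (1.35) lie farthest to the right and *Rorb* (−0.79) farthest to the left, and no αERKO point was called.

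Clock transcripts also varied between samples of the same group. The deviation of each sample from its group mean on the log2(FPKM + 1) scale was used, so that differences between groups do not enter. WT-DES sample 1 had the lowest *Arntl* of its group and the highest *Per2*, *Cry2*, *Dbp* and *Tef*. αERKO-veh sample 3 had the highest *Arntl* and the lowest *Per3*, *Cry2*, *Dbp* and *Tef* of its group. Both samples had the highest *Clock*, *Per1* and *Cry1* of their groups, so that these genes went the same way in both. αERKO-veh sample 3 also had the highest summed level of 5 skeletal muscle genes in that group (1746 FPKM, against 573 to 1258 FPKM), as did WT-DES sample 1 in its group (326 FPKM, against 33.9 to 81.6 FPKM), and the part of this was not tested.

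Over the 16 samples, *Arntl* was correlated within groups with each of the other 9 genes. The deviations of *Dbp* ran opposite to those of *Arntl* (Pearson r = −0.743, exact permutation p = 0.00529, adjusted p = 0.0476 over 9 relations; Spearman rho = −0.782, exact permutation p = 0.0028), on opposite sides of the group means in 14 of 16 samples. *Cry2* gave r = −0.769 (exact permutation p = 0.0108, adjusted p = 0.0488) and rho = −0.821 (exact permutation p = 0.00115). *Tef* gave r = −0.682 (exact permutation adjusted p = 0.0603), and the other 6 genes had r between −0.586 (*Per2*) and 0.311 (*Clock*). Without the 2 samples farthest from the median of *Arntl*, which are WT-DES sample 1 and αERKO-veh sample 3, *Dbp* had r = −0.463 (exact permutation p = 0.12, 14 samples) and *Cry2* r = −0.402 (exact permutation p = 0.332). The relations at the size given thus rest on those samples, although leaving out the extremes of *Arntl* also narrows its range. On leaving out each group in turn, r ran from −0.792 to −0.649 for *Dbp* and from −0.831 to −0.664 for *Cry2*, with no adjusted p of r within 0.05 over the 12 samples left. The adjusted exact permutation p of rho was 0.0345 for both genes without WT-veh, and missed 0.05 without each of the other groups.

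**Figure D5:**
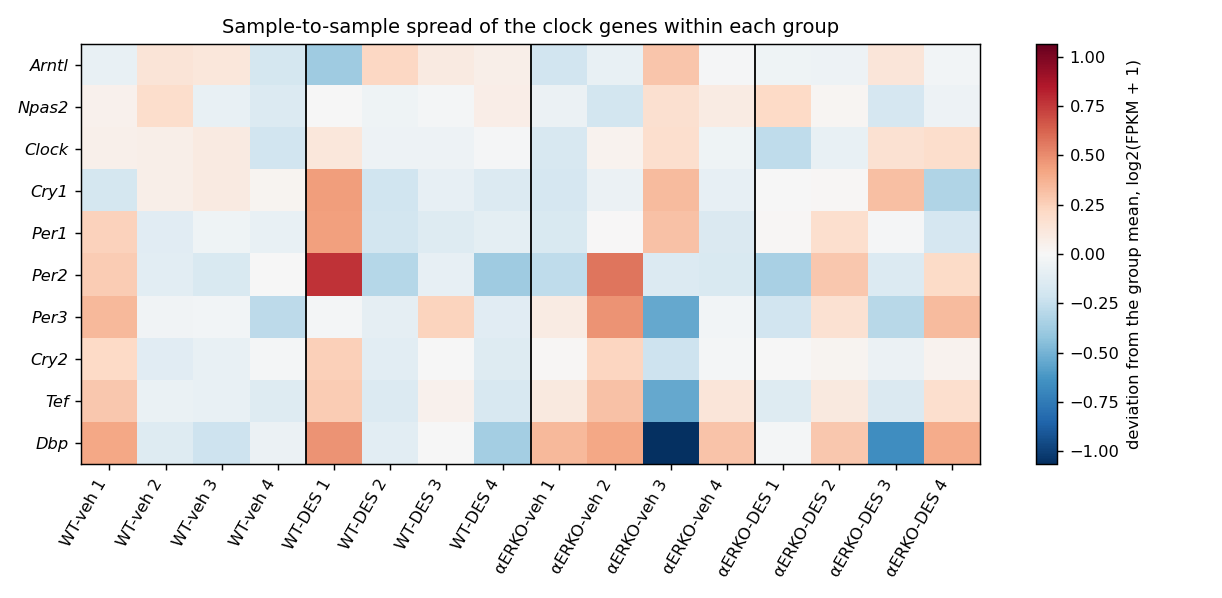
Deviation of each sample from its group mean, in log2(FPKM + 1), for the 10 clock genes (rows) in the 16 samples (columns, groups separated by lines); red is above and blue below the mean. In αERKO-veh sample 3 *Dbp*, *Tef* and *Per3* are below and *Arntl* above the mean, and WT-DES sample 1 has the reverse for *Dbp*, *Tef* and *Arntl*.

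Among the 15978 tested genes outside the 10, those whose deviations were most like those of *Dbp* over the 16 samples were *Cys1* (r = 0.921), *Nr1d1* (0.917), *Cirbp* (0.876), *P4htm* (0.872) and *Fbxo27* (0.872). *Nr1d1* is thus ranked 2 and *Nr1d2* (0.759) 46. Those most like *Arntl* were *Mtbp* (0.921), *Tmpo* (0.918), *Mb21d1* (0.880), *Pfas* (0.867) and *Prpf4* (0.863), and *Timeless* (0.709) was ranked 143. These are descriptions over samples that share their library with every gene compared, and carry no test.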

How the data were processed

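RNA-seq of the SV was deposited as FPKM per gene with 2 decimals. The authors aligned reads to mm10 (GRCm38) with TopHat 2.0.4 and made the FPKM values with Cufflinks 2.0.2. The annotation, the strand setting and any scaling between libraries are not given in the sources used here. FPKM holds no counts, so the depth is unknown.

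The 15988 of 31274 genes whose mean FPKM passed 1 in any group were analysed as log2(FPKM + 1) with limma 3.58.1 in R 4.3.3, in 1 model of 16 samples with a mean per group and a variance trend, and p-values were adjusted by the Benjamini-Hochberg method over all genes tested. Calls needed an adjusted p within 0.05, a 1.5-fold ratio of mean FPKM and a mean above 1 FPKM, after the thresholds the methods give for another tool. Correlations used exact two-sided permutation of the values within groups (331776 arrangements). Scripts were tested on simulated data. Tables and figures used Python 3.11.15, pandas 2.3.3, numpy 2.4.6, scipy 1.17.1 and matplotlib 3.10.9. The genes named are the 10 clock genes, the further clock genes that changed with DES in WT or in the interaction, listed stress and marker genes, overlapping genes, and the 5 genes most like *Dbp* and *Arntl*. *Ciart* was named after its values were seen. A gene of the list of further clock genes is not reported here and was left out of its counts. The genes, lists and tests were chosen with earlier results of these data known. Alternatives were another pseudocount, other minimums and thresholds, other models and weights, a replicate block, 3 scalings, a length correction and leaving out each sample.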

Additional observations from a re-analysis of the deposited data

Results flagged for a closer look

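Samples far from the other 3 of their group were found in 7 of 40 gene and group pairs, where chance gives about 1 in 20. They were WT-DES sample 1 for *Per1* (24.3 FPKM) and *Cry1* (8.35 FPKM), αERKO-veh sample 3 for *Dbp* (19.2 FPKM), αERKO-veh sample 2 for *Per2* (5.77 FPKM), αERKO-DES sample 3 for *Arntl* (14.4 FPKM), WT-veh sample 4 for *Clock* (7.20 FPKM) and WT-veh sample 1 for *Tef* (46.7 FPKM).

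The change with DES differed between WT and αERKO for 6 clock genes by the interaction term of the limma model. The difference was −1.02 for *Arntl* (limma adjusted p = 0.000164), 2.16 for *Per2* (5.94e-05), 1.90 for *Per3* (2.52e-05), −0.98 for *Cry1* (0.00128), 1.98 for *Dbp* (0.000955) and 1.28 for *Tef* (0.000167), all on the log2(FPKM + 1) scale.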

How the results depend on the processing

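Of 1604 values of single clock genes under the alternatives, 1530 kept their direction and their call, and 0 called changes turned their sign. The call takes the adjusted p and the fold minimum together, so a value that crossed only the adjusted p could still count as kept. The counts of clock genes called with DES in WT (6), with DES in αERKO (0), between the genotypes given DES (6), between αERKO-DES and WT-veh (0) and in the interaction (6) stayed within 1.5 times under every alternative, although equal totals without the 20 most abundant genes exchanged *Arntl* and *Cry1* for *Clock* and *Cry2* in WT and in the interaction. In αERKO-veh relative to WT-veh 2 genes were called. This count was 1 with no minimum on FPKM, with a mean above 5 FPKM, with no variance trend, with the replicate block and with the length correction, 6 with no fold minimum, 0 at an adjusted p of at most 0.01, and 0 to 2 on leaving out 1 sample. It was 0 without αERKO-veh sample 2. Apart from the fit with no fold minimum, *Tef* was called in addition under 2 alternatives that kept all samples. The correlation of *Arntl* passed for 2 genes by Pearson's r, and for 0 with median-ratio scaling (*Dbp* r = −0.740, exact permutation adjusted p = 0.0517, and *Cry2* r = −0.758, 0.0571), without the 2 farthest samples, and on leaving out each of the 4 groups in turn, where r of both stayed between −0.831 and −0.649. By Spearman's rho both still passed with median-ratio scaling (exact permutation adjusted p = 0.0148 each) and without WT-veh (0.0345 each), and neither passed with quantile normalization (*Cry2* 0.0506, *Dbp* 0.0862), where r passed for both. With a length correction, added after seeing the data, it passed for 3. The cause of these changes was not tested.

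Replicate numbers did not pair the samples. Deviations of same-numbered samples had r between −0.215 and 0.277 (median −0.02), and of other samples between −0.301 and 0.261. The replicate block left 6, 1, 0, 6, 0 and 6 clock genes called. Levels trended with transcript length differently by group, with negative rho in all WT-veh samples (−0.519 to −0.207) and positive rho in all WT-DES samples (0.164 to 0.193). Over all genes, the calls with DES in αERKO ran from 1 to 1119 over the alternatives against 239, and αERKO-veh relative to WT-veh gave 461 with the length correction against 1139. Depth is unknown, so low genes such as *Per2* and *Npas2* have a counting error that cannot be estimated here.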
